A study of Mus musculus with 6 samples.

Results

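The interferon-stimulated genes described here are 35 mouse genes taken by symbol from the 54446 genes of the deposited count matrices, and every symbol was found once. Their transcripts were followed in 6 droplet-based single-cell libraries of cultured mouse glioma, 2 of GL261 and 4 of GL261-GSCs. GL261 is an established mouse glioma line, grown here in a differentiation medium with fetal calf serum. The label of GL261-GSCs is glioblastoma stem cells derived from that line, and these cultures were kept in a defined stem cell medium. The labels name no genotype change, interferon, virus or other agent in either group, so by label the groups share the line of origin and differ in culture medium. The labels do not say whether whole cells or nuclei entered the droplets, and nothing in them says that replicates came from separate cultures, so p-values measure only the spread between these libraries.

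Interferons are secreted signals of antiviral defence. Type I interferon acts through a pair of receptor chains, IFNAR1 and IFNAR2, whose kinases JAK1 and TYK2 activate STAT2. With IRF9 it forms part of a complex that binds the interferon-stimulated response element (ISRE) in target promoters, whereas type II interferon acts largely through gamma-activated sites (GAS). The targets include sensors of viral RNA, enzymes and binding proteins that block viral replication, and regulators such as IRF7 and USP18 that raise or limit the response. Many tumour lines transcribe a part of this programme with no added interferon.

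Promoter stretches are printed for 4 of the 9 genes that passed the test described below, Isg15, Ifit1 and Ifit3, which were lower in GL261-GSCs, and Rsad2, which was higher. They are those of the 9 with a match to the pattern marked here and were chosen with both known. Ifit2 and Xaf1, also lower, had promoter windows with 0 matches, and Parp9, Parp14 and Zbp1 had no window. Each holds bases 170 to 51 before the transcription start on the strand of the gene, from the RefSeq table of build GRCm38.p6, at chr4:156200869-156200988 (minus strand) for Isg15, chr19:34640719-34640838 (plus) for Ifit1, chr19:34583359-34583478 (plus) for Ifit3 and chr12:26456503-26456622 (minus) for Rsad2. Capitals mark every match to the ISRE-type pattern, GAAA followed by any 2 bases and a second GAAA, on either strand, overlapping matches included.
Isg15: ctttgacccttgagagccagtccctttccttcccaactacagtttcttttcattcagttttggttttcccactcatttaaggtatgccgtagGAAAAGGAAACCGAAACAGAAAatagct
Ifit1: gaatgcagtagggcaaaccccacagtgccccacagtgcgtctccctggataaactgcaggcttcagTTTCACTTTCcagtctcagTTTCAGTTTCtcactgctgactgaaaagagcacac
Ifit3: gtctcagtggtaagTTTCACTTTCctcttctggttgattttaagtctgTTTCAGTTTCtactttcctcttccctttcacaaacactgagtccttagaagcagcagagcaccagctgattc
Rsad2: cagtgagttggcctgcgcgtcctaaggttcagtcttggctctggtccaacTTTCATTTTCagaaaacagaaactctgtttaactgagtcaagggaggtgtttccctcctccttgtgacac

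These stretches held 3 matches for Isg15, 2 each for Ifit1 and Ifit3, and 1 for Rsad2. Of the 35 genes, 26 had a promoter window in the RefSeq table, which runs from 250 bases before to 50 bases after the start. Mx1, Mx2, Usp18, Dhx58, Parp9, Parp14, Rtp4, Zbp1 and Ifi27 had none. The ISRE-type pattern was found in 14 of the 26 genes (53.8%), against 3.99% of the 27025 genes of the table with windows of the same length. Those with a match were Stat2, Isg15, Ifit1, Ifit3, Rsad2, Oas1a, Bst2, Gbp2, Gbp3, Gbp7, Ifih1, Ddx58, Ifitm3 and Eif2ak2. The GAS-type pattern TTCNNNGAA, which reads the same on both strands in its fixed letters, was found in 8 of the 26 genes (30.8%), against 9.55% of all. The pattern matches describe letters only, and a window without one says nothing of the factor.

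Total unique molecular identifiers (UMIs, each counting 1 captured RNA molecule) ranged from 80899005 to 121309232 per library, and called cells from 4264 to 7275. Median depth was 15477.5 and 13651.5 UMIs a cell in GL261 replicates 1 and 2, and 15374.5, 11889.5, 10638 and 6670 in GL261-GSCs replicates 1 to 4. Any pair of libraries shared 32 to 59 barcodes of called cells. Sox2, Olig2 and Fabp7, markers used for the stem cell label, rose in GL261-GSCs, Nes fell, and Prom1 had 3 and 8 UMIs in all in the 2 groups. Of 25 markers of microglia, T or NK cells, dendritic cells, endothelium, fibroblasts and red cells, C1qa, Siglech, Cldn5 and Hbb-bs were at 0 in every library. Ptprc, the pan-leukocyte gene, was seen with 2 UMIs over all GL261 cells and 4 over all GL261-GSCs cells. Summed counts per 1000000 UMIs (CPM) of the 8 microglia or macrophage markers were 19.9 to 20.9 in GL261 and 9.21 to 23.2 in GL261-GSCs, nearly all from Csf1r and Cd68. Each of the other 5 marker lists summed to at most 5.70 CPM in any library, led by Flt3, which rose, and Pdgfrb, which fell with Cdh5 and Csf1r. Csf1r stood at 12.9 and 12.6 CPM in GL261 replicates 1 and 2. The part of these markers in differences between the groups was not tested.

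Each library's UMIs were added up over its called cells, and the sums were compared with the edgeR quasi-likelihood test, with p-values adjusted over all 18439 genes tested (Benjamini-Hochberg). Of the 35 genes, 34 passed the filter on low counts. Mx1, a dynamin-like GTPase that blocks viral ribonucleoproteins, did not, with 0 to 5 UMIs per library. In GL261-GSCs 8 of the 34 genes fell and 1 rose at an adjusted p under 0.05, which is 26.5% of them. Over all genes tested 29.9% passed, so the share of these genes that passed was near the background. The 8 falls were 23.5% of the 34, against 14.1% of all genes that fell, and the 1 rise was 2.94%, against 15.8% that rose. The median log2 fold change (GL261-GSCs over GL261) was -0.88 over the 34 genes and 0.035 over all genes tested. Over the 34 genes it was -0.28 without GL261 replicate 1 and -1.47 without GL261 replicate 2. Library values of the groups did not overlap for 13 of the 34 (38.2%), against 56.7% of all genes. Without GL261 replicate 1 none of the 8 falls passed the test, as given below.

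**Figure D1:**
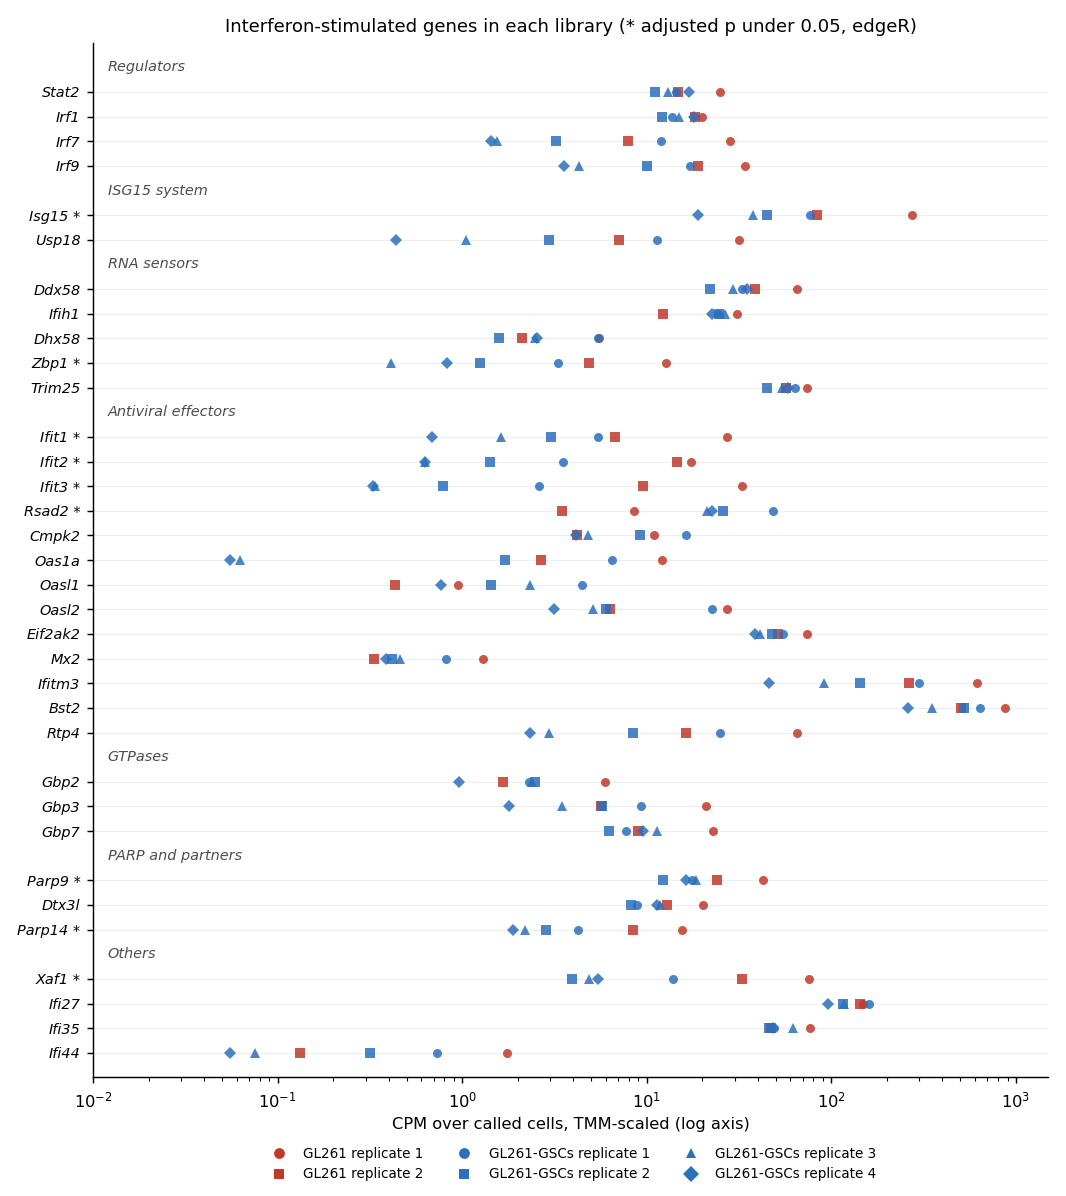
CPM of 34 interferon-stimulated genes in each of the 6 libraries on a log axis, grouped by role (Mx1, with 0 to 5 UMIs a library, is not drawn), with red symbols for the 2 GL261 and blue symbols for the 4 GL261-GSCs libraries. GL261 replicate 1 (red circle) was the highest library for 30 of the 34 genes, and Rsad2 is the gene marked as higher in GL261-GSCs.

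The 3 Ifit genes, which encode related antiviral proteins, fell together. They lie in 1 cluster on chromosome 19 (GRCm38), Ifit2 at 34550694 to 34576419, Ifit3 at 34583531 to 34588731 and Ifit1 at 34640871 to 34650009, all on the plus strand. Ifit3 stood at 32.6 and 9.49 CPM in GL261 replicates 1 and 2, and at 2.59, 0.79, 0.34 and 0.33 CPM in GL261-GSCs replicates 1 to 4. All 4 GL261-GSCs libraries were below both GL261 libraries. Its log2 fold change was -4.36 (SE 0.90, adjusted p = 0.0122, edgeR), the largest fall among the 34 genes. Ifit3 has a near-identical copy, Ifit3b, which also fell. Reads that match both copies cannot be assigned to 1 of them with certainty, so the value of each is uncertain.

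Ifit2 was the Ifit gene with the closest GL261 libraries, at 17.4 and 14.6 CPM in replicates 1 and 2. In GL261-GSCs replicates 1 to 4 it stood at 3.52, 1.42, 0.63 and 0.63 CPM, all below GL261. Its log2 fold change was -3.36 (SE 0.68, adjusted p = 0.0115, edgeR). Ifit1 differed more between the GL261 libraries, at 27.1 and 6.69 CPM, and stood at 5.43, 3.02, 1.63 and 0.69 CPM in GL261-GSCs replicates 1 to 4. Here GL261 replicate 2 lay closer to GL261-GSCs replicate 1 than to its own replicate, and the log2 fold change was -2.64 (SE 0.79, adjusted p = 0.0454, edgeR).

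Isg15 encodes a ubiquitin-like protein that is conjugated to other proteins during the response, at chr4:156199424-156200818. It stood at 274 and 83.1 CPM in GL261 replicates 1 and 2, and at 77.0, 44.8, 37.4 and 18.9 CPM in GL261-GSCs replicates 1 to 4. Means over the libraries were 178 ± 135 CPM (SD, n = 2) and 44.5 ± 24.3 CPM (SD, n = 4). The groups did not overlap, but GL261 replicate 2 and GL261-GSCs replicate 1 were close. The log2 fold change was -2.0 (SE 0.59, adjusted p = 0.0430, edgeR), and with limma-voom it did not pass (adjusted p = 0.0590, between 0.0027 and 0.406 over 18 alternative analyses). Usp18, the protease that removes ISG15 and dampens receptor signalling, spread widely within both groups, from 7.06 to 31.7 CPM in GL261 and from 0.44 to 11.4 CPM in GL261-GSCs. It did not pass (log2 fold change -2.28, SE 1.15, adjusted p = 0.175, edgeR).

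Among the poly(ADP-ribose) polymerase genes, Parp14 and Parp9 fell. Parp14, an ADP-ribosyltransferase of interferon-activated cells (chr16:35832874-35871544), stood at 15.6 and 8.43 CPM in GL261 replicates 1 and 2. In GL261-GSCs replicates 1 to 4 it stood at 4.26, 2.83, 2.20 and 1.90 CPM. With no overlap and a log2 fold change of -2.10 (SE 0.38), it had the smallest adjusted p of the 34 genes, 0.0079 (edgeR). Parp9, which works in a complex with the ubiquitin ligase DTX3L, stood at 42.7 and 24.2 CPM in GL261 and at 17.6, 12.3, 18.4 and 16.2 CPM in GL261-GSCs replicates 1 to 4. Its log2 fold change was -1.05 (SE 0.26, adjusted p = 0.0237, edgeR). Dtx3l lies beside Parp9 on the opposite strand, and their annotated genes share 682 bases, so reads there could be assigned to either gene if strand was not used. Dtx3l stood at 20.2 and 12.9 CPM in GL261 and at 8.17 to 11.8 CPM in GL261-GSCs, and did not pass (log2 fold change -0.72, SE 0.25, adjusted p = 0.0693, edgeR).

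Xaf1, a factor linked to cell death in interferon-treated cells (chr11:72301629-72313733), stood at 75.5 and 32.9 CPM in GL261 replicates 1 and 2. In GL261-GSCs replicates 1 to 4 it stood at 13.9, 3.93, 4.85 and 5.41 CPM, all below GL261, and its log2 fold change was -2.94 (SE 0.55, adjusted p = 0.0089, edgeR). Zbp1, a sensor of left-handed nucleic acid that can start necroptosis, stood at 12.8 and 4.84 CPM in GL261 and at 3.32, 1.24, 0.41 and 0.82 CPM in GL261-GSCs replicates 1 to 4. Its log2 fold change was -2.60 (SE 0.77, adjusted p = 0.0433, edgeR).

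Rsad2 went the other way. It encodes viperin, a radical enzyme that makes a chain-terminating nucleotide against viral polymerases, and lies at chr12:26442746-26456452 on the minus strand. It stood at 8.55 and 3.48 CPM in GL261 replicates 1 and 2, and at 48.5, 25.9, 21.3 and 22.5 CPM in GL261-GSCs replicates 1 to 4. Every GL261-GSCs library was above both GL261 libraries, and the group means were 6.01 ± 3.58 CPM (SD, n = 2) and 29.6 ± 12.8 CPM (SD, n = 4). The log2 fold change was 2.30 (SE 0.51, adjusted p = 0.0166, edgeR). Within each group its highest library was the replicate 1 library, which was also the highest of its group for Isg15, Ifit1, Ifit2, Ifit3, Xaf1, Zbp1 and Parp14.

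Cmpk2, a mitochondrial nucleotide kinase whose gene starts beside Rsad2 on the opposite strand, with 12751 bases between the annotated genes, did not pass. It stood at 11 and 4.19 CPM in GL261 and at 16.3, 9.19, 4.83 and 4.12 CPM in GL261-GSCs replicates 1 to 4, and the groups overlapped. Its log2 fold change was 0.18 (SE 0.64, adjusted p = 0.852, edgeR) and turned negative in 3 of 18 alternative analyses. Oasl1, an OAS-like protein that restrains Irf7 translation, was also higher on average in GL261-GSCs, at 0.77 to 4.47 CPM against 0.43 and 0.95, but did not pass (log2 fold change 1.71, SE 0.75, adjusted p = 0.129, edgeR).

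Of the 4 genes with a UMI in over 20% of the cells of some library at equal depth, Isg15 fell, as given above, and Bst2, Ifitm3 and Ifi27 did not pass the test. Bst2 encodes tetherin, which holds budding virus at the cell surface, and Ifitm3 encodes a membrane protein that blocks viral fusion. Together they held 40.8% to 57.6% of the UMIs of the 35 genes in a library. Bst2 stood at 870 and 506 CPM in GL261 replicates 1 and 2, and at 642, 522, 349 and 259 CPM in GL261-GSCs replicates 1 to 4, so that the groups overlapped (log2 fold change -0.63, SE 0.39, adjusted p = 0.252, edgeR). Ifitm3 stood at 614 and 262 CPM in GL261 and at 298, 142, 90.7 and 45.9 CPM in GL261-GSCs replicates 1 to 4, also with overlap (log2 fold change -1.60, SE 0.68, adjusted p = 0.120, edgeR). Ifi27, a mitochondrial and nuclear membrane protein gene, was the steadiest of all 34 between the GL261 libraries, at 148 and 143 CPM. It stood at 160, 116, 116 and 95.9 CPM in GL261-GSCs replicates 1 to 4 and did not pass (log2 fold change -0.26, SE 0.20, adjusted p = 0.377, edgeR).

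None of the 4 regulators passed. Irf7, which amplifies type I interferon, stood at 28.3 and 7.87 CPM in GL261 replicates 1 and 2 and at 1.43 to 11.9 CPM in GL261-GSCs. Irf9 stood at 34.1 and 18.9 CPM in GL261 and at 17.2, 10.1, 4.30 and 3.57 CPM in GL261-GSCs replicates 1 to 4 without overlap (log2 fold change -1.59, SE 0.62, adjusted p = 0.0967, edgeR). Stat2, whose product joins IRF9, and the GAS-driven regulator Irf1 stood closer together, at 11.1 to 24.9 CPM and at 12.2 to 19.8 CPM over the 6 libraries.

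Of the cytosolic RNA sensors and their ligase, none but Zbp1 passed. Ddx58, which encodes RIG-I, stood at 64.9 and 38.6 CPM in GL261 and at 22.1 to 34.7 CPM in GL261-GSCs, with an adjusted p of 0.0549 (edgeR, log2 fold change -0.80, SE 0.26). Ifih1, which encodes MDA5, differed more between the GL261 libraries, at 31 and 12.2 CPM, than among the GL261-GSCs libraries, at 22.6 to 26.6 CPM. Trim25, the RIG-I ubiquitin ligase, kept within 45 to 73.7 CPM and the RNA-activated kinase gene Eif2ak2 within 38.6 to 73.4 CPM over the 6 libraries. Dhx58, encoding LGP2, stood at 1.57 to 5.53 CPM.

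The other effectors did not pass either. Oas1a, a synthase of the RNase L activator, ranged from 0.055 to 6.44 CPM within GL261-GSCs, where replicates 3 and 4 stood at 0.063 and 0.055 CPM. Reads that match both Oas1a and its close copy Oas1g cannot be assigned to 1 of them with certainty. Oasl2 stood at 3.13 to 27.1 CPM and Mx2 at 0.33 to 1.29 CPM. The guanylate-binding proteins, large GTPases that attack the vacuoles of intracellular pathogens, stood at 0.96 to 5.91 CPM for Gbp2, 1.79 to 20.9 for Gbp3 and 6.27 to 22.9 for Gbp7. Rtp4, a binding protein of viral RNA, ranged from 2.33 to 65.4 CPM, Ifi44 from 0.055 to 1.75 CPM, and Ifi35 from 45.9 to 77.0 CPM.

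Libraries of 1 group differed widely in these genes. GL261 replicate 1 was at least 2-fold above GL261 replicate 2 for 21 of the 34 genes (61.8%), against 5.29% of all genes tested. It was at least 2-fold below for 0 of the 34, against 1.83% of all genes. The median ratio of replicate 1 to replicate 2 was 2.5 over the 34 genes, with a range from 1.04 to 13.2, and 0.994 over all genes. GL261 replicate 1 was the highest of the 6 libraries for 30 of the 34 genes, against 15.0% of all genes. The exceptions were Rsad2, Oasl1, Cmpk2 and Ifi27, for each of which GL261-GSCs replicate 1 was the highest.

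**Figure D2:**
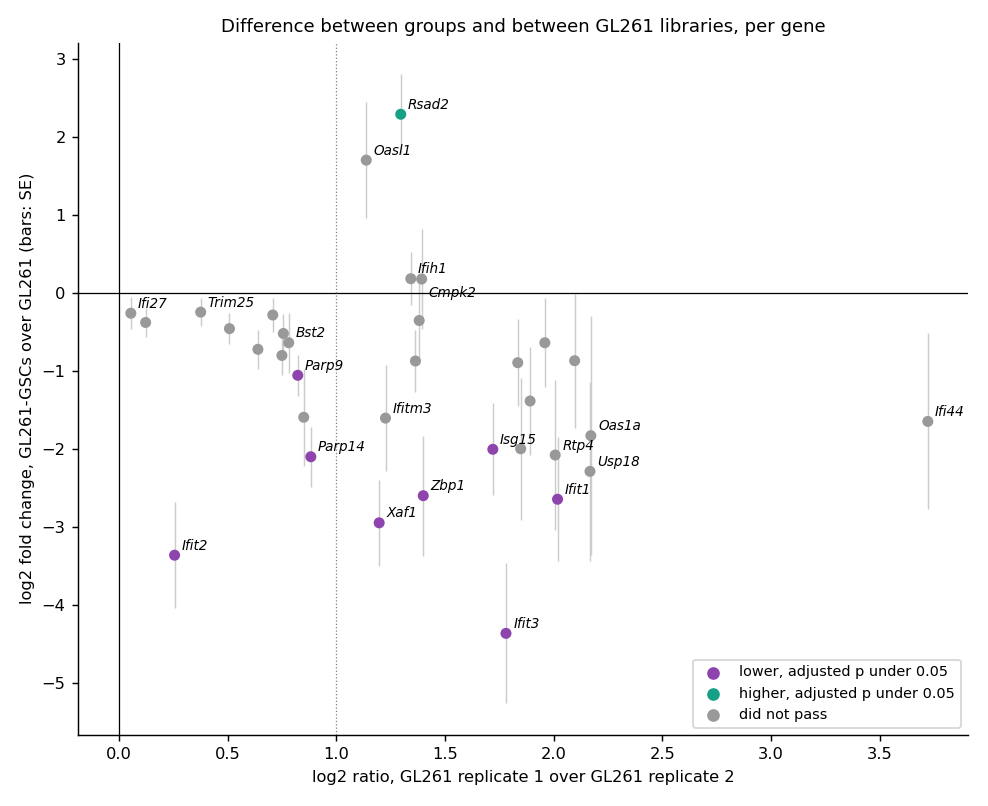
For each of 34 genes, the log2 fold change of GL261-GSCs over GL261 (bars, SE) against the log2 ratio of the 2 GL261 libraries, with coloured points for genes with an adjusted p under 0.05. Every gene lies right of 0, 21 lie beyond the dotted line at a 2-fold ratio, and Ifit2 combines a fall of 3.36 with GL261 libraries that were nearly equal.

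Within GL261-GSCs, replicate 1 was the highest library for 25 of the 34 genes (73.5%), against 28.6% of all genes. Replicate 4 was the lowest for 21 of them (61.8%), against 31.7%. Replicate 1 was at least 2-fold above replicate 4 for 23 of the 34 (67.6%), against 10.3% of all genes. The highest GL261-GSCs library was at least 4-fold above the lowest for 15 genes (44.1%), against 12.4% of all, and the median of that ratio was 3.49 against 1.67. Oas1a had a ratio of 117, Usp18 of 25.9, Ifi44 of 13.2 and Rtp4 of 10.7, whereas Ifih1 had 1.18, Ifi35 1.35 and Trim25 1.41. The median UMIs per cell were likewise highest in replicate 1 and lowest in replicate 4. Malat1 made up 0.288%, 0.344%, 0.457% and 0.813% of cell UMIs in GL261-GSCs replicates 1 to 4, and 0.443% and 0.433% in GL261. The median mitochondrial share rose from 1.04% in GL261-GSCs replicate 1 to 1.35% in replicate 4. The part of depth, Malat1 share or mitochondrial share in these differences was not tested.

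The summed level of the 35 genes was 2792 and 1434 CPM in GL261 replicates 1 and 2, and 1679, 1153, 939 and 748 CPM in GL261-GSCs replicates 1 to 4. GL261-GSCs replicate 1 thus lay above GL261 replicate 2. The means were 2113 ± 961 CPM (SD, n = 2) and 1130 ± 402 CPM (SD, n = 4), and their difference of -983 CPM was of the size of 1 SD of the GL261 libraries. Summed over the 8 genes that fell, the levels were 498 and 184 CPM in GL261 and 128, 70.3, 65.9 and 44.9 CPM in GL261-GSCs replicates 1 to 4. In such sums fewer cells with a transcript and fewer transcripts per cell cannot be told apart.

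Calls changed with the libraries in the fit. With 1 GL261 library left out, that group has 1 library, and fewer of all genes passed. Ifit2, whose GL261 libraries were nearly equal, had a log2 fold change of -3.49 without GL261 replicate 2 and -3.24 without GL261 replicate 1. With that library left out, 0 of the 34 genes fell and 2 rose, Rsad2 and Ifih1, where 5.21% of all genes fell and 5.11% rose. This fit has 1 GL261 library, whose spread is assumed to be that of the GL261-GSCs libraries. All 8 genes kept a negative log2 fold change in it, from -3.24 for Ifit2 and -3.23 for Ifit3 to -0.59 for Parp9. Without GL261 replicate 2, 5 genes fell (Isg15, Ifit3, Parp9, Parp14 and Xaf1) and 0 rose, where 4.98% of all genes fell and 4.31% rose, and Rsad2 had a log2 fold change of 1.79 (adjusted p = 0.113, edgeR). Without GL261-GSCs replicate 1, 13 genes fell (38.2%), against 15.4% of all genes. Without GL261-GSCs replicate 2, 3 or 4, 5 genes fell (14.7%) in each case, against 12.3%, 10.6% and 13.7% of all genes. With GL261-GSCs replicates 1 and 2 both left out, 20 of 33 genes fell (60.6%), against 26.2% of all genes, and with replicates 3 and 4 left out 7 of 34 fell (20.6%), against 18.9%. Ifit3, Parp9, Parp14 and Xaf1 fell in 17 of 18 alternative analyses, Ifit2 in 16, Isg15 and Ifit1 in 12 and Zbp1 in 11. Rsad2 rose in 17 of 18.

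To compare single cells at equal depth, each called cell was thinned to 2000 UMIs without replacement. A cell then held a UMI of at least 3 different genes of the 35 in 65.4% and 31.4% of cells in GL261 replicates 1 and 2. In GL261-GSCs replicates 1 to 4 the shares were 39.7%, 21.9%, 18.2% and 15.0%. Exact binomial (Clopper-Pearson) 95% intervals, which cover counting error only, ran from 64.0% to 66.7% in GL261 replicate 1 and from 14% to 16.1% in GL261-GSCs replicate 4. GL261-GSCs replicate 1 was above GL261 replicate 2, so the groups overlapped, and the means were 48.4% ± 24.0 (SD, n = 2) and 23.7% ± 11 (SD, n = 4). Free RNA, taken at the amount and make-up seen in barcodes of 100 or more but under 1000 UMIs, would give 0.023% to 0.311% of cells such a set. Without thinning, the difference between the groups was -12.4 percentage points in place of -24.7.

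**Figure D3:**
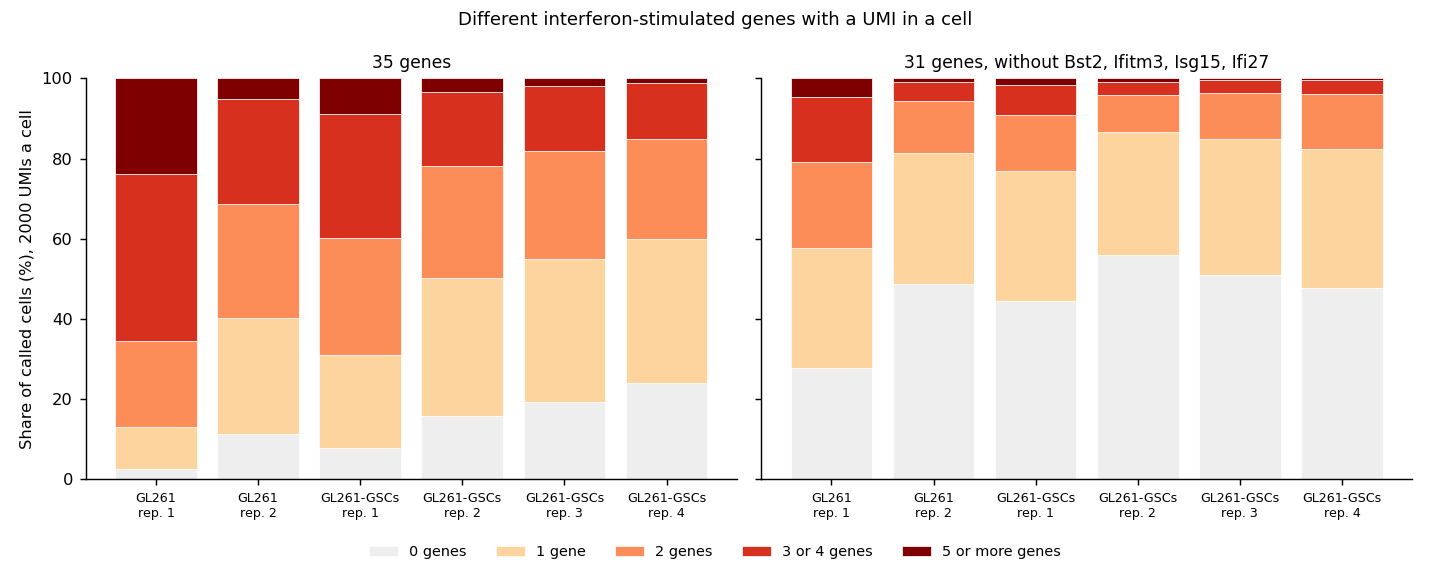
Shares of called cells, each thinned to 2000 UMIs, by the number of different interferon-stimulated genes with a UMI in the cell, for all 35 genes and for the 31 genes other than Bst2, Ifitm3, Isg15 and Ifi27. Cells with 3 or more of the 31 genes made up 20.8% of GL261 replicate 1 and 3.67% to 9.10% of the other libraries.

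The 4 genes Bst2, Ifitm3, Isg15 and Ifi27 each had a UMI in more than 20% of the thinned cells of some library. Bst2 had one in 74.0% and 56.2% of cells in GL261 and in 66.5%, 59.9%, 45.3% and 35.4% in GL261-GSCs replicates 1 to 4. Ifitm3 had one in 61.6% and 34.9% of GL261 cells and in 39.8%, 21.0%, 14.4% and 6.32% of GL261-GSCs cells. For Isg15 the shares were 31.7% and 11.1% of GL261 cells and 10.4%, 5.37%, 4.37% and 2.73% of GL261-GSCs cells, each above the 0.403% to 2.30% that free RNA would give. The other 31 genes each had a UMI in at most 13.4% of the cells of a library. At least 3 of those 31 were seen in 20.8% and 5.74% of GL261 cells and in 9.10%, 4.05%, 3.67% and 3.88% of GL261-GSCs cells.

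For Ifit3 and Rsad2, the share of thinned cells with a UMI also differed between the groups. After thinning, most cells held no UMI of either gene, so this share largely follows the CPM. It cannot tell fewer cells with a transcript from fewer transcripts per cell. Ifit3 was seen in 5.35% and 1.5% of GL261 cells and in 0.399%, 0.153%, 0.096% and 0.022% of GL261-GSCs cells, where free RNA would give 0.003% to 0.032%. In GL261-GSCs replicate 4 that was 1 of 4512 cells. Rsad2 was seen in 0.998% and 0.520% of GL261 cells and in 5.07%, 3.0%, 3.57% and 4.21% of GL261-GSCs cells, against at most 0.428% from free RNA.

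UMIs of some genes were held by few cells. The 1% of cells with the most Rsad2 held 58.2% and 83.8% of its UMIs in GL261, from 577 and 210 UMIs, and 42.3% to 63.2% in GL261-GSCs. Single cells held up to 113 Rsad2 UMIs in GL261-GSCs replicate 1 and up to 133 in replicate 2. For Isg15 the share in the top 1% of cells was 10.5% and 20% in the GL261 libraries. It was 23.2%, 40.3%, 45.4% and 54.8% in GL261-GSCs replicates 1 to 4, so libraries with less Isg15 had a larger share of it in few cells. Cells were not thinned here, and Isg15 had 18486 UMIs in GL261 replicate 1 and 688 in GL261-GSCs replicate 4. The part of counting in this order of shares was not tested. Trim25 and Eif2ak2 were spread over cells, with 6.01% to 8.89% of their UMIs in the top 1% in every library. A gene with few UMIs reaches a high share by counting alone, as Ifit3 does at 100% of its 12 UMIs in GL261-GSCs replicate 4.

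**Figure D4:**
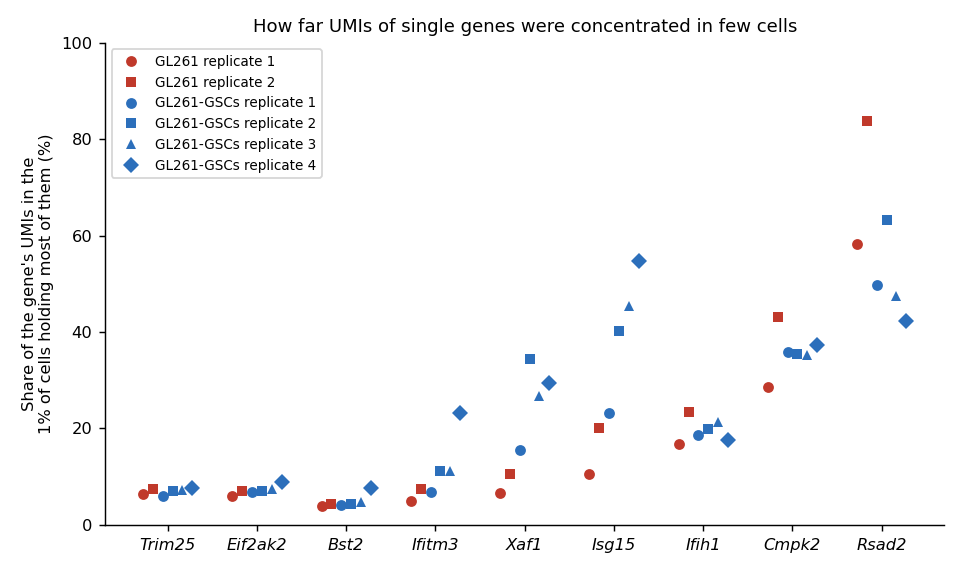
Share of the UMIs of 9 genes held by the 1% of called cells with the most UMIs of that gene, unthinned, in each library. Trim25, Eif2ak2 and Bst2 stay under 10% in all 6 libraries, Isg15 ranges from 10.5% to 54.8% and Rsad2 from 42.3% to 83.8%.

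Genes were next read in cells with and without an Isg15 UMI, at 2000 UMIs a cell. Another of the 31 less widespread genes was seen in 80.8% of cells with Isg15 and 68.2% of those without in GL261 replicate 1, and in 65.0% and 49.6% in GL261 replicate 2. In GL261-GSCs replicates 1 to 3 the shares were 66.0% to 73.4% with Isg15 and 42.8% to 53.5% without. In GL261-GSCs replicate 4 they were 60.2% with Isg15 (123 cells, exact 95% interval 50.9% to 68.9%) and 52.1% without (50.6% to 53.5%), so these intervals overlapped. Cells with Isg15 had similar depth before thinning to those without in 5 libraries, for example 14999 against 15424.5 UMIs in GL261-GSCs replicate 1. In GL261-GSCs replicate 4 they were deeper, at 7903 against 6651 UMIs.

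Among cells with Isg15, the shares with Rsad2 and with Ifit3 differed between the groups, whereas those with Ifih1 overlapped. Of the cells with Isg15, 1.90% and 2.35% held an Rsad2 UMI in GL261 replicates 1 and 2, and 18.0%, 20.6%, 18.9% and 17.9% in GL261-GSCs replicates 1 to 4. Of the cells without Isg15, 0.578% and 0.292% held one in GL261 and 2.0% to 3.83% in GL261-GSCs, so Rsad2 was seen in more GL261-GSCs cells on either side of the split. Ifit3 ran the other way among cells with Isg15, at 9.78% and 6.32% of them in the GL261 libraries, against 2.48%, 2.22%, 1.57% and 0.813% in GL261-GSCs. GL261-GSCs replicates 1 to 4 had 444, 315, 318 and 123 cells with Isg15, so these shares rest on few cells. As given above, Ifit3 was also seen in a smaller share of all GL261-GSCs cells. Its shares here therefore do not show how closely it went with Isg15 in either group. Ifih1 was seen in 8.67% and 5.60% of such cells in GL261 and in 10.8%, 15.9%, 18.6% and 8.13% in GL261-GSCs. Trim25 hardly followed the split, at 8.89% to 13.9% of cells with Isg15 and 9.49% to 13.4% of cells without over the 6 libraries. No test was made of these shares, since cells of 1 library share their source.

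**Figure D5:**
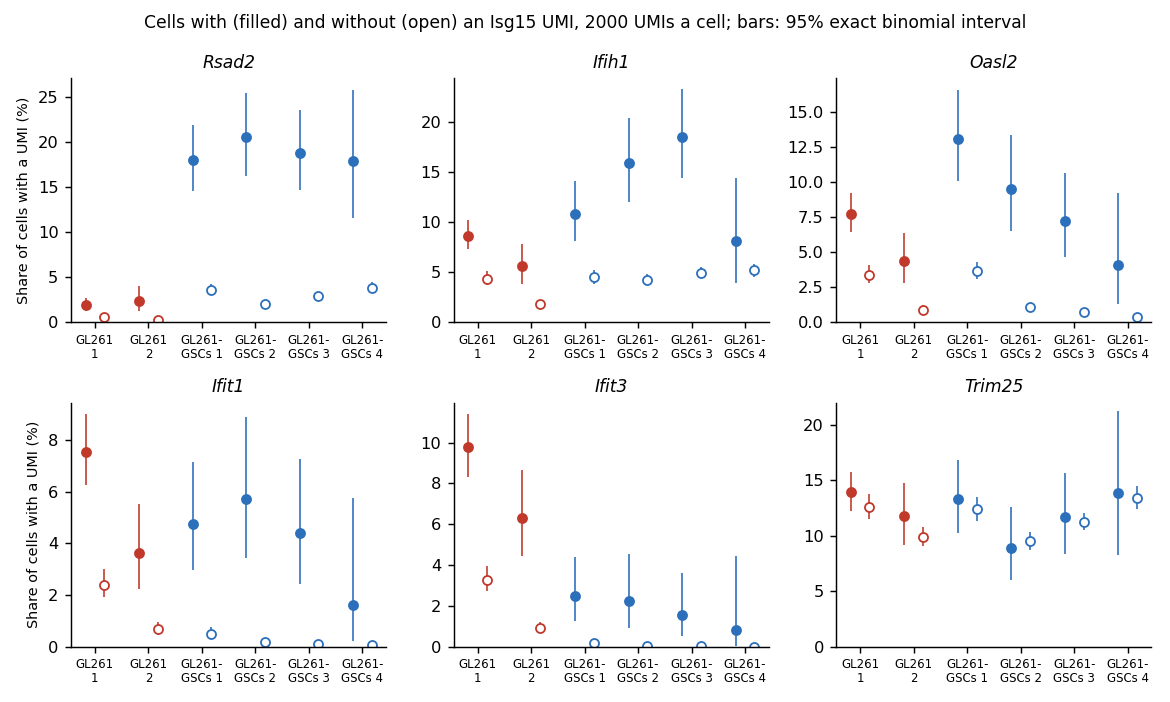
Share of called cells, thinned to 2000 UMIs, with a UMI of 6 genes among cells with (filled) and without (open) an Isg15 UMI in each library, with exact 95% binomial intervals for counting error. Rsad2 lies at 17.9% to 20.6% of Isg15 cells in the 4 GL261-GSCs libraries and at 1.90% and 2.35% in GL261, while Ifit3 lies higher in GL261.

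Pairs of the genes met in the same cells to different extents. Among cells with Rsad2, 33.3% and 23.1% also held Ifit1 in GL261, from 48 and 26 cells, against 3.74% and 0.884% of cells without Rsad2. In GL261-GSCs replicates 1 to 4 the shares were 7.41%, 10.8%, 5.0% and 1.58% of cells with Rsad2, against 0.593%, 0.140%, 0.114% and 0.046% of cells without. Ifit1 thus had a larger share among cells with Rsad2 in each of the 6 libraries, from 3 such cells in GL261-GSCs replicate 4. Of cells with Rsad2 in GL261-GSCs replicates 1 and 2, 16.7% and 17.0% held its neighbour Cmpk2, against 1.58% and 1.46% of cells without Rsad2. In GL261 replicates 1 and 2 the shares were 16.7% and 3.85% (8 and 1 cells), against 1.89% and 0.683%. In GL261-GSCs replicates 3 and 4 those shares were 5.77% and 1.58%, against 0.841% and 0.972%. For the overlapping pair Parp9 and Dtx3l, 4.77% and 4.44% of GL261 cells with Parp9 held Dtx3l, against 3.48% and 2.28% without. In GL261-GSCs replicates 1 to 4 these shares were 1.32%, 3.66%, 5.50% and 4.52%, against 1.75%, 1.81%, 2.24% and 2.70%. Only in GL261-GSCs replicate 1, with 2 cells that held both, was the share lower among cells with Parp9.

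Around these genes, the ligands were almost unseen. Of 14 interferon genes, 8 had no UMI in the 31731 called cells, among them Ifnb1 and Ifng, which for each allows a share of up to 0.00945% of cells with a UMI (3 counts over all called cells, counting error only). This limits cells with a UMI, not cells that express the gene. Ifna2, Ifna4, Ifna11, Ifne and Ifnk had 1 to 4 UMIs each. Ifnz, an interferon zeta gene, had 128 UMIs, at 0.63 ± 0.18 CPM in GL261 (SD, n = 2) and 0.17 ± 0.12 CPM in GL261-GSCs (SD, n = 4), and did not pass (log2 fold change -1.80, SE 0.60, adjusted p = 0.0626, edgeR).

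Of 6 interferon receptor genes 5 were tested, of which 2 rose and 0 fell in GL261-GSCs, where 15.8% of all genes rose and 14.1% fell. Ifngr2 stood at 20.5 and 19.3 CPM in GL261 and at 33.8, 40.2, 70.6 and 64.3 CPM in GL261-GSCs replicates 1 to 4 (log2 fold change 1.39, SE 0.33, adjusted p = 0.0212, edgeR). Ifnar1 stood at 23.4 and 22.5 CPM in GL261 and at 33.4, 38.8, 75.9 and 72.8 CPM in GL261-GSCs replicates 1 to 4 (log2 fold change 1.26, SE 0.38, adjusted p = 0.0467, edgeR). For both receptor chains the GL261 libraries were nearly equal, and GL261-GSCs replicates 3 and 4, which had the lowest summed level of the 35 genes, were the highest. Ifngr2 rose in 16 of 18 alternative analyses and Ifnar1 in 12, and neither passed without GL261 replicate 1 or without GL261 replicate 2. Ifnar1 also did not pass without GL261-GSCs replicate 3 or 4, with limma-voom or over all barcodes. Ifnar2, Ifngr1 and Il10rb did not pass, with log2 fold changes of 0.92, 0.083 and 0.24, and Ifnlr1 was under the filter.

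Among the receptor kinases, Jak2 rose (log2 fold change 0.98, SE 0.24, adjusted p = 0.0213, edgeR). Its rise passed in 15 of 18 alternative analyses, and not without GL261 replicate 1, GL261 replicate 2 or GL261-GSCs replicate 3. Jak1 and Tyk2 did not pass, each with a log2 fold change of -0.30. Of 14 sensors and adaptors 12 were tested, and 3 fell (25%) against 14.1% of all genes, namely the interferon regulatory factor Irf3 (log2 fold change -0.97), the related Irf5 (-1.40) and the cyclic dinucleotide receptor Sting1 (-0.58). Irf3 fell in 17 of 18 alternative analyses, all but that without GL261 replicate 2. Irf5 fell in 14 and Sting1 in 10, and neither passed without GL261 replicate 1 or without GL261 replicate 2. Sting1 also did not pass without GL261-GSCs replicate 1, 2 or 4, and Irf5 without replicate 3. The other 9 sensors and adaptors did not pass.

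Of 9 negative regulators 8 were tested, 4 fell (50%) and 1 rose (12.5%), against 14.1% and 15.8% of all genes. Socs3, an inhibitor of JAK kinases, stood at 23.2 and 22.0 CPM in GL261 and at 3.14, 4.09, 3.11 and 4.45 CPM in GL261-GSCs replicates 1 to 4, with little spread within either group (log2 fold change -2.61, SE 0.20, adjusted p = 0.00031, edgeR). Adar, an RNA-editing enzyme, Samhd1, a nucleotide hydrolase, and Socs1 fell by 0.97, 0.82 and 0.84 on the log2 scale, and Pias1, a SUMO ligase that restrains cytokine signalling, rose by 0.56. Socs3 fell in all 18 alternative analyses, Samhd1 in all but that without GL261 replicate 2 and Adar in all but that without GL261 replicate 1. Socs1 fell in 12 of the 18 and Pias1 rose in 9, and neither passed without GL261 replicate 1, GL261 replicate 2 or GL261-GSCs replicate 3. Socs1 also did not pass without GL261-GSCs replicate 4, and Pias1 without replicate 2. Ptpn2, Ptpn6 and Ptpn11 did not pass, and Trex1 was under the filter. Among 13 genes of antigen presentation by MHC class I, Psme2, Nlrc5 and Psmb10 fell (log2 fold changes -0.88, -2.29 and -0.76), Erap1 rose (0.98), and B2m and H2-D1 were among the 9 that did not pass (adjusted p = 0.0584 and 0.0633, edgeR). The 3 falls were 23.1% and the 1 rise 7.69% of these 13 genes, against 14.1% and 15.8% of all genes. None of the 4 passed without GL261 replicate 1 or without GL261 replicate 2. Nor did Psmb10 without GL261-GSCs replicate 2 or 3, Nlrc5 without replicate 3, or Erap1 without replicate 3 or 4.

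In a further list of 62 interferon-stimulated genes, 53 were tested, 21 fell (39.6%) and 1 rose (1.89%), where 14.1% of all genes fell and 15.8% rose. Without GL261 replicate 1, only 2 of the 21 falls passed, Isg20 and Lgals3bp, and 11 did without GL261 replicate 2. Both of these fits have 1 GL261 library, and fewer genes passed in them over all genes too, as given above. Without GL261-GSCs replicates 1 to 4 in turn, 20, 14, 11 and 16 of the 21 passed. Over all genes tested, 15.4%, 12.3%, 10.6% and 13.7% fell when those libraries were left out. The smallest p-values belonged to Isg20, an exonuclease, Lgals3bp, a secreted scavenger-receptor protein, and Tdrd7, a Tudor-domain protein. Isg20 stood at 20.6 and 18.7 CPM in GL261 and at 5.85 to 7.17 CPM in GL261-GSCs (log2 fold change -1.62, SE 0.16, adjusted p = 0.00075, edgeR). Lgals3bp stood at 171 and 100.3 CPM in GL261 and at 20.1 to 33.1 CPM in GL261-GSCs (log2 fold change -2.35, SE 0.26, adjusted p = 0.0010, edgeR). Tdrd7 was the 1 gene of the list that rose. Its mean was 10.4 ± 1.96 CPM in GL261 (SD, n = 2) and 48.5 ± 14 CPM in GL261-GSCs (SD, n = 4), and its log2 fold change was 2.22 (SE 0.32, adjusted p = 0.0032, edgeR). GL261 replicate 1 was at least 2-fold above replicate 2 for 25 of the 53 genes, against 5.29% of all genes. It was so for 1 of the 13 MHC class I genes, 0 of the 5 receptor genes, 0 of the 12 sensors and adaptors and 0 of the 8 negative regulators tested.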

How the data were processed

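UMIs were measured in 2 GL261 and 4 GL261-GSCs libraries, grouped by the sample titles. The deposited files hold raw, unfiltered UMI counts for each gene in each barcode. The kit was the 10x 5' kit per the labels' protocols, the files name Cell Ranger 4 per the file headers, and the build was mm10 per the submitters' processing notes. The use of strand in counting was not given in the sources used here. Each of the 35 gene identifiers matched the GENCODE M21 annotation (GRCm38) with their version. The members and the other gene lists were chosen with earlier results of these data known. Of the other lists, 1 gene is not reported here.

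A barcode was called a cell with at least 500 genes, under 10% mitochondrial UMIs, and 10% or more of the UMIs at the 99th percentile of the largest 3000 barcodes. This set the UMI minimum at 2060 to 3274. Doublets were not removed. UMIs were summed per library, to 33320530 to 79472306, and tested with edgeR 4.0.16 in R 4.3.3 (glmQLFit and glmQLFTest, TMM, filterByExpr, Benjamini-Hochberg adjustment, 2-sided, threshold 0.05, no block). The SE is the absolute log2 fold change divided by the square root of F, and CPM used TMM-scaled library sizes. Tested on simulated data for this comparison (18439 genes, 200 changed by 2 on the log2 scale), edgeR recovered 169 with 5 false calls among 174. limma-voom (limma 3.58.1) recovered 166 with 5 false among 171, and DESeq2 1.42.0 recovered 164 with 28 false among 192. Every simulated gene had the same dispersion (0.097), and fewer genes changed than the 5514 called in the data. These figures therefore do not give the recovery for genes that spread more between libraries. Cells were not treated as replicates, and single-cell shares were read with numpy 2.4.6 and scipy 1.17.1 after thinning to 2000 UMIs. Free RNA was read from barcodes of 100 or more but under 1000 UMIs (median 472 to 679 per library). Full values are given for genes that passed the test and for those with a UMI in over 20% of the thinned cells of a library, and the other genes are given by range. Irf9, Cmpk2, Usp18, Dtx3l, Ddx58, Oasl1, B2m and H2-D1 fall outside this rule and were chosen after their values were seen. From the other lists, genes that passed are named, or the 3 with the smallest p where more than 5 passed, and failing genes where 5 or fewer failed.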

Additional observations from a re-analysis of the deposited data

Results flagged for a closer look

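In each group of 4 to 10 libraries, a value was looked at again where the highest or lowest library stood apart from its neighbour by a part of the whole range above Dixon's 95% critical value. This was asked of the 4 GL261-GSCs libraries only. Of 80 values checked 8 stood out, and chance alone marks about 1 in 20 groups.

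GL261-GSCs replicate 1 stood above its group in 7 of the 8. Rsad2 stood at 48.5 CPM there, against 21.3 to 25.9 CPM in replicates 2 to 4. Oasl2 stood at 22.5 CPM, against 3.13 to 5.99, and Xaf1 at 13.9 CPM, against 3.93 to 5.41. Irgm2, an immunity-related GTPase outside the 35 genes, stood at 2.23 CPM, against 0.73 to 0.91, and Lgals9, a galectin outside them, at 103 CPM, against 51.4 to 58.7. The summed level of the 31 genes other than Bst2, Ifitm3, Isg15 and Ifi27 was 502 CPM, against 328 to 345, and 9.10% of thinned cells held at least 3 of those 31 genes, against 3.67% to 4.05%. The 7 values share their cells and are not independent of each other.

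Gbp2 was the 1 value where GL261-GSCs replicate 4 stood apart, at 0.96 CPM, against 2.30 to 2.48 CPM in the other 3 libraries.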

How the results depend on the processing

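Under other scaling, count filter, cell calling and removal of the deepest cells, 7 to 10 of the 34 genes (35 with no filter) fell and 1 rose. Over all genes 2034 to 2660 fell and 2848 to 3491 rose in these settings, of 18183 to 32817 genes tested. With no filter Irf9 and Ddx58 passed as well, over all barcodes Ddx58 did, and without the deepest cells Zbp1 did not. With library size scaling the median over all genes was 0.18 in place of 0.035 (log2 fold change) and that over the 34 genes -0.76 in place of -0.88, which split all calls into 3491 higher and 2034 lower in place of 2920 and 2594. DESeq2 called 12 falls and 2 rises among the 34, and 3072 falls and 3688 rises among all 18439 genes. limma-voom called 7 falls among the 34 genes, without Isg15, and 3 rises in the other pathway lists in place of 6. Among all 18439 genes it called 2778 falls and 2666 rises. The replicate number as a block gave 18 falls and 3 rises among the 34, Cmpk2 (0.84, adjusted p = 0.0330, edgeR) among them. Over all genes that fit gave 3071 falls and 3441 rises. GL261-GSCs replicates 3 and 4 have no GL261 library of their number. Over all genes tested, deviations of same-numbered libraries correlated at -0.026 and 0.037. This cannot decide whether same-numbered libraries varied together in the 34 genes. The labels state no pairs, and the numbers were not taken as pairs. With GL261-GSCs replicates 1 and 2 left out, 9881 genes were called (5171 higher, 4710 lower), with 20 falls among 33 genes tested and 16 rises and 52 falls in the other lists.

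Leaving out 1 library at a time gave 1817 to 6193 calls over all genes, 843 to 3372 higher and 974 to 2821 lower. It gave 0 to 13 falls and 0 to 2 rises among the 34 genes, and 5 to 42 falls and 1 to 7 rises in the other lists. The difference in summed level ranged from -1662 to -304 CPM and that in cells with at least 3 genes from -41.7 to -7.68 percentage points, in each case lowest without GL261 replicate 2 and highest without GL261 replicate 1. Without Bst2, Ifitm3, Isg15 and Ifi27 these differences were -287 CPM and -8.07 percentage points.

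Signs turned for few genes, none of them called in the edgeR test of all 6 libraries with no block. Leaving out 1 library, log2 fold changes ranged from -1.80 to 0.53 for Oasl2, -1.30 to 0.64 for Mx2, -1.54 to 0.29 for Gbp2, -2.56 to 1.16 for Ifi44, -0.88 to 0.49 for Dhx58 and -0.59 to 0.11 for Ifi35, each positive only without GL261 replicate 1. They ranged from -0.34 to 1.0 for Ifih1 and -0.35 to 1.03 for Cmpk2, lowest without GL261 replicate 2, and from -0.011 to 0.22 for Ifngr1, lowest without GL261-GSCs replicate 3. Cmpk2 was at -0.31 without GL261-GSCs replicate 1 and at -0.74 without replicates 1 and 2. Ifngr1 was at -0.25 with the block and -0.24 without replicates 3 and 4, and Il10rb at -0.34 with the block and -0.33 without replicates 3 and 4. With GL261-GSCs replicates 1 and 2 left out, both passed as higher. Ifngr1 was then at 0.37 (adjusted p = 0.0190, edgeR) and Il10rb at 0.67 (adjusted p = 0.0072, edgeR). In that fit Oasl2 passed as lower, at -1.98 (adjusted p = 0.0242, edgeR). The cause was not tested. Over 74 genes and all alternatives, 1119 of 1331 log2 fold changes kept direction and side of the threshold, 44 passed newly, 153 no longer passed and 15 turned. Mx1, Mx2 and Ifi44 had means under 1 CPM in both groups, from 0 to 118 UMIs a library.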
